A study of Mus musculus with 14 samples.

Results

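The 8 genes S1pr1, Ccr7, Itga4, Itgb7, Itgb1, Itgae, Cd44 and Selplg encode receptors with which T cells enter, hold on to and leave lymphoid organs and tissues. Chromatin accessibility near them was read from ATAC-seq, in which a transposase cuts open chromatin and inserts sequencing adapters. Windows of the count table, all of the same length, were taken where, among the start sites of all protein-coding genes, that of one of the 8 lay closest to the centre, at most 100 kb away. This gave 367 of 240778 windows (0.152%), of which 88 belonged to S1pr1, 67 to Cd44, 58 to Ccr7, 45 to Itga4, 38 to Selplg, 35 to Itgb1, 22 to Itgae and 14 to Itgb7. All samples carried Foxp3-AID, an allele whose Foxp3 protein carries a degron that responds to auxin-like ligands, and all were treated with the ligand 5-ph-IAA for 3 or 7 days. In the Foxp3-AID ROSA26-TIR1(F74G) samples (R26TIR1), the ROSA26 locus encodes the plant receptor TIR1(F74G), through which 5-ph-IAA marks the fusion protein for degradation. Per the study's methods a stop cassette flanked by loxP sites precedes TIR1, and the Cre that removes it is driven from the Foxp3 locus. Foxp3-AID ROSA26-WT samples (R26WT) lack TIR1 and served as controls. Treg cells came from spleen and lymph nodes, with 4 R26TIR1 and 4 R26WT samples on day 3 and 3 R26TIR1 and 3 R26WT samples on day 7. The labels give neither the activation state of the cells nor the age of the mice. The headers of the count table name a separate mouse for each sample. The question for each gene was whether its accessibility differed after Foxp3 had been targeted for degradation.

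A T cell in the blood rolls along the vessel wall on selectin ligands, is triggered by chemokine receptors and arrests through integrins, and later leaves the lymphoid organ along a gradient of sphingosine 1-phosphate. The integrin chain α4 pairs with β7, which directs cells to the gut, or with β1, which holds cells to inflamed vessels and matrix, while αE pairs with β7 and binds E-cadherin on epithelia. Treg cells that recirculate through lymphoid organs as resting cells keep Ccr7, and activated Treg cells carry more CD44 and more tissue-homing integrins.

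Counts in all windows ranged from 5653289 to 20184487 per library (median 15560985). R26TIR1 replicate 1 on day 3 and R26WT replicate 3 on day 7 (6348754) were the shallowest. Values are given as CPM, the usual scale on which counts are divided by library size, here corrected for library composition. Windows within 1 kb of a start site held 42.5% to 46.6% of the counts of a library. The lowest shares were in R26TIR1 replicate 3 on day 3 and R26WT replicate 3 on day 7, both at 42.5%. Medians were 45.7% in R26WT and 44.0% in R26TIR1 samples on day 3, and 45.7% and 45.8% on day 7. The part of this share in the values of single start windows was not tested. Among lists of marker genes, 8 of 10 Treg cell markers and 9 of 9 T cell markers had a window within 1 kb of their start, and Foxp3 itself had none. Of 10 B cell markers, 7 had none, Cd79a, Ms4a1 and Pax5 among them. Cr2, Ebf1 and Cd79b had such windows, the highest that of Cr2 at 6.55 CPM. Of 9 myeloid markers, 6 had none, including Csf1r and Lyz2. Cd14, Spi1 and Cebpa had such windows, the highest that of Cd14 at 4.48 CPM. Of 7 CD8 and NK cell markers, 3 had none, and the median of the highest window was 1.33 CPM. Cd8b1 reached 12.5 CPM there, above Cd4 at 4.55 CPM, where the median of the T cell markers was 11.6 CPM. In bulk material, fewer cells of a type and lower accessibility per cell cannot be told apart.

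The 8 genes differed in how much accessible chromatin was assigned to them. Summed over its windows, S1pr1 had 405 CPM on average over the 14 libraries, above 99.8% of the 15971 genes with at least 1 window. Ccr7 followed at 239.8 CPM, Cd44 at 182, Selplg at 157, Itga4 at 141 and Itgb1 at 114. Itgb7 at 66.5 CPM and Itgae at 37.0 had the lowest sums, and that of Itgae was above 47.9% of genes. Every window has the same length, but 102 of the 367 overlap another that holds more reads, so that some reads count more than once. The mean per window is thus the average height of a window, and not accessibility per length of gene. It was highest for Itgb7 (4.75 CPM) and S1pr1 (4.60), close together for Ccr7 (4.13) and Selplg (4.13), then 3.26 for Itgb1, 3.13 for Itga4, 2.72 for Cd44 and 1.68 for Itgae. The order by sum therefore partly follows the number of windows, and Itgb7 with 14 windows ranks first per window. Only 30.8% of the windows lay inside the gene they were assigned to, against 48.0% of all windows within 100 kb of a protein-coding start site. Of the 35 windows of Itgb1, 27 lay upstream of its start.

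Start sites were open in 6 of the 8 genes by the annotated gene ends, and in 7 with the RefSeq transcript start of Itgb7. Ccr7, the receptor for the chemokines of T cell zones, had the most accessible start, with 26.3 CPM in the window nearest it. S1pr1, the receptor for egress from lymphoid organs, followed with 23.5 CPM, and Itga4 with 20.2 CPM. The start windows of Itgb1 (13.3 CPM) and Selplg (12.9 CPM) were similar to each other, and those of Cd44 (7.65 CPM) and Itgb7 (6.93 CPM) were lower. The Itgae gene had no window within 1 kb of its start, and its most accessible window, with 4.36 CPM, lay 17871 bp downstream, inside the gene. The median over 11491 genes of the most accessible window within 1 kb was 16.4 CPM. That measure is at least as high as the window nearest the start, so the values above are not directly comparable with it. S1pr1 was the only one of the 8 genes whose most accessible window lay outside the gene and away from its start, at 32.2 CPM and 32241 bp downstream of the start (chromosome 3, 115682714 to 115682915, GRCm38).

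RefSeq promoters on GRCm38.p6 were at hand for 4 of the 8 genes (Itga4, Cd44, Itgb1 and Itgb7) and not for S1pr1, Ccr7, Itgae and Selplg. The 250 bases before the start are shown for the 3 integrin chains whose promoter is covered by an accessible window, so that the start-site values can be read beside the sequence. That of Itgb1 is chr8:128685404-128685653 on the plus strand, that of Itga4 is chr2:79255176-79255425 on the plus strand, and that of Itgb7 is chr15:102231936-102232185 on the minus strand. Capitals mark matches to the motifs searched.

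Itgb1: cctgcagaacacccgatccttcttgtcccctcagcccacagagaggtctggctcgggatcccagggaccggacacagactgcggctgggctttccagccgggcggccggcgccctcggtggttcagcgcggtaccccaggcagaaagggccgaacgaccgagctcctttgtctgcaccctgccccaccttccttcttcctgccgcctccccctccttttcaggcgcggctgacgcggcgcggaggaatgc

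Itga4: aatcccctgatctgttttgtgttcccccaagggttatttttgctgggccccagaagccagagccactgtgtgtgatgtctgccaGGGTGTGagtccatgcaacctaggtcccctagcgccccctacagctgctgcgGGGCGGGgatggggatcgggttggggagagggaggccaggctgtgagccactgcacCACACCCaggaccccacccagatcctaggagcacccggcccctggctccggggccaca

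Itgb7: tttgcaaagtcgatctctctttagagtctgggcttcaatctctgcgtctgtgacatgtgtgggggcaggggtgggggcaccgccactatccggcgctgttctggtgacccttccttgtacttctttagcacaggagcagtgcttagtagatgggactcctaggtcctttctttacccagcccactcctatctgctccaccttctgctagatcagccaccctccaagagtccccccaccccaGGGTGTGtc

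The Itgb1 promoter was GC-rich, with 68.0% G and C and 21 CpG dinucleotides, against medians of 52.4% and 6 over 32851 promoters of the same length. Itga4 had 64.0% and 6, Itgb7 56.0% and 5. The motifs searched, on both strands, were TGTTTAC (forkhead, held by 3.17% of all promoters), GGGTGTG (KLF, 6.93%), GGGCGGG (the box of SP and KLF factors, 23.4%), CCGGAAG (ETS, 6.91%), TGTGGTT (RUNX, 4.40%), TGANTCA (AP-1, 6.75%) and TTCNNNGAA (STAT, 7.02%). The KLF letters occurred at 2 places in the Itga4 promoter and once in that of Itgb7, and the box of SP and KLF factors once in that of Itga4. None of these letters occurred in the promoter of Itgb1, or in that of Cd44, which had no accessible window over it.

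Between genotypes, no window of the 8 genes passed the test. On day 7, 0 of 366 tested windows were called at an adjusted p under 0.05 by edgeR's quasi-likelihood test, with 0.00463% called over all windows. On day 3 it was 0 of 360 (0.0% over all windows). In the joint fit of both days, which holds a term for day, it was 0 of 367 (0.0112%). An unadjusted p under 0.05 was reached by 30, 42 and 40 of these windows (5.95%, 7.55% and 6.73% of all windows). Sums per gene likewise gave 0 of 8 calls on day 7 (0.0% of all genes), on day 3 (0.107%) and over both days (0.0188%), with 4, 2 and 4 genes at an unadjusted p under 0.05 (7.37%, 16.0% and 13.2% of all genes). With DESeq2, which called more of the gene sums than edgeR, Itgb1 passed at the level of sums on day 3 (1.15% of all genes) and over both days (1.18% of all genes). There 619 of 15960 and 6193 of 15971 genes were given no adjusted p. Over both days 2 windows of Selplg passed with DESeq2 (0.0644% of all windows), where 210066 of 240778 windows were given no adjusted p. In the plot of genotype differences by gene, the interval over both days lay above 0 for Itgb1 and below 0 for Ccr7, Itgb7 and Selplg. The 8 genes had a median log2 fold change of -0.06 over both days, and all genes one of 0.00.

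**Figure D1:**
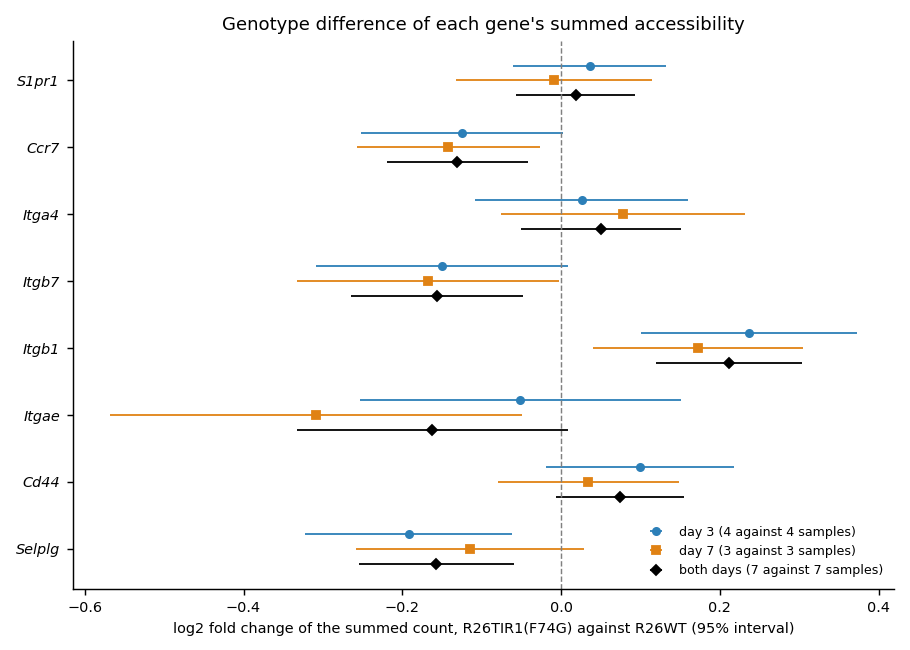
Log2 fold change of each gene's summed count between R26TIR1 and R26WT samples (horizontal axis), with 95% intervals from edgeR's quasi-likelihood test, for day 3, day 7 and both days. Itgb1 sits to the right of 0 at 0.21 over both days, and Ccr7 (-0.13), Itgb7 (-0.16) and Selplg (-0.16) sit to the left.

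S1pr1, which lymphocytes need to leave lymph nodes, had the smallest genotype difference of the 8 genes over both days. On day 3 its summed accessibility was 382, 421, 404 and 408 CPM in the R26WT samples and 434, 389, 379.5 and 394 CPM in the R26TIR1 samples. On day 7 it was 428, 386 and 420.5 CPM in R26WT samples and 417, 403 and 404 CPM in R26TIR1 samples. The genotypes overlapped on both days. The log2 fold change over both days was 0.02, with a 95% interval from -0.06 to 0.09 (adjusted p = 0.865, edgeR's quasi-likelihood test). The fit scales libraries on the sums per gene, and CPM are scaled on the windows, so small differences can change sign between them. Mean CPM of S1pr1 went the other way, at 407 in R26WT and 403 in R26TIR1 samples. Its start window had 24.1 ± 2.68 CPM (SD, n = 7) in R26WT and 22.8 ± 1.91 CPM (SD, n = 7) in R26TIR1 samples, with an interval of the log2 fold change from -0.26 to 0.09. Across its 88 windows the log2 fold changes over both days ran from -0.37 to 0.35.

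Ccr7 lay lower in R26TIR1 samples on both days, by less than the test required. On day 3 the sums were 249.8, 234, 241 and 261 CPM in R26WT samples and 254, 214, 187 and 219 CPM in R26TIR1 samples. Replicate 1, the shallowest library, was within the range of the R26WT samples and the other 3 were below it. On day 7 they were 272, 253 and 262 CPM against 243, 230.5 and 239 CPM, and the groups did not overlap. The log2 fold change of its sum was -0.12 on day 3, -0.14 on day 7 and -0.13 in the joint fit (standard error 0.043, unadjusted p = 0.00568, adjusted p = 0.219, edgeR's quasi-likelihood test). The difference was spread over the locus: 49 of its 58 windows had a log2 fold change below 0 over both days, as did 49.3% of all windows. The window over the start (chromosome 11, 99155017 to 99155218) had 28.2, 26.1, 27.6 and 28.3 CPM in R26WT samples on day 3 and 30.0, 19.2, 17.6 and 23.4 CPM in R26TIR1 samples. On day 7 it had 32.5, 29.4 and 28.2 CPM in R26WT and 23.6, 25.9 and 27.8 CPM in R26TIR1 samples, so that every R26TIR1 sample but day 3 replicate 1 was below the R26WT samples of its day. Its log2 fold change over both days was -0.28 (standard error 0.092, adjusted p = 0.515). The overlapping window from 99155050 to 99155251, the most accessible one of Ccr7, passed when both shallowest libraries were left out (log2 fold change -0.38, adjusted p = 0.0398, with 0.047% of all windows called). That choice was made after the data were seen. It takes out R26TIR1 replicate 1 of day 3, which had 33.6 CPM in this window, against 18.9 to 23.6 CPM in the other R26TIR1 samples of day 3.

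**Figure D2:**
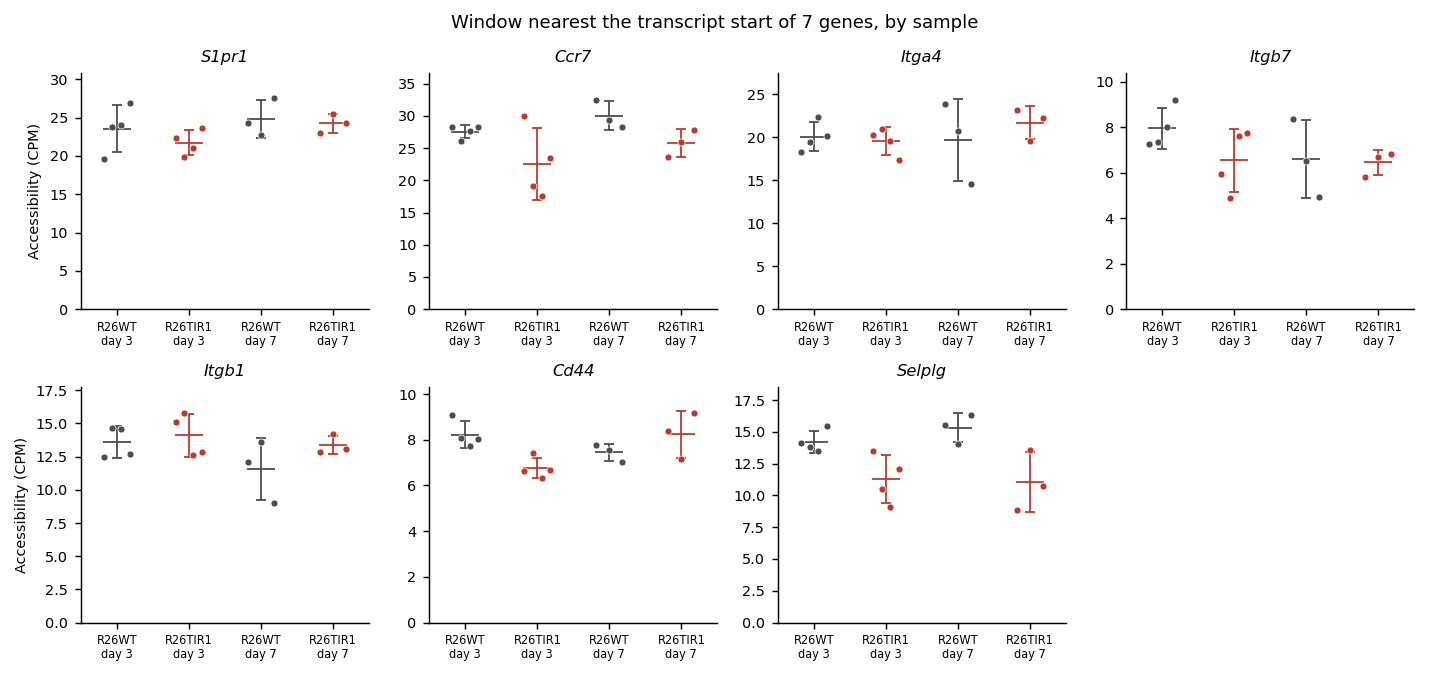
Accessibility in CPM (vertical axes, from 0) of the window nearest the transcript start of 7 genes, with 1 point per sample and the mean and SD of each group. In Selplg all 3 R26TIR1 samples on day 7 lie below the R26WT samples, and in Ccr7 1 R26TIR1 sample lies above all others of day 3 at 30.0 CPM.

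Among the integrin chains, Itga4, which encodes the α4 chain, had similar sums in both genotypes. Its sums were 124 to 157 CPM in R26WT and 129 to 148 CPM in R26TIR1 samples on day 3, and 126 to 154 CPM against 134 to 158 CPM on day 7. The groups overlapped on both days, and the log2 fold change over both days was 0.05 (95% interval -0.05 to 0.15, adjusted p = 0.685). The start window had a log2 fold change of 0.03 over both days (95% interval -0.16 to 0.21), and its sign turned without R26WT replicate 3 of day 7 (-0.04).

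Itgb7, the β7 partner of α4 and αE, lay lower in R26TIR1 samples. Its sums on day 3 were 74.2, 66.5, 71.8 and 69.9 CPM in R26WT and 66.7, 63.3, 53.0 and 62.8 CPM in R26TIR1 samples. On day 7 they were 72.5, 67.6 and 73.9 CPM against 63.4, 61.3 and 64.7 CPM. The groups touched on day 3, where the highest R26TIR1 sample lay just above the lowest R26WT sample, and did not overlap on day 7. For Itgb7 the log2 fold change was -0.15 on day 3 and -0.17 on day 7, and -0.16 in the joint fit (standard error 0.052, unadjusted p = 0.00675, adjusted p = 0.227). Over both days 49.3% of all windows had a log2 fold change below 0. All 14 windows of Itgb7 did, only 11 of them free of overlap. The smallest unadjusted p of these, 0.00709, was at chromosome 15, 102231297 to 102231498, inside the gene (log2 fold change -0.46, adjusted p = 0.574). The window at the transcript start had 7.27, 7.34, 7.99 and 9.21 CPM in R26WT and 5.93, 4.88, 7.60 and 7.72 CPM in R26TIR1 samples on day 3, and 8.33, 6.51 and 4.95 CPM against 5.83, 6.68 and 6.83 CPM on day 7, and the groups overlapped on both days.

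Itgae, the αE chain that marks many tissue Treg cells, differed most on day 7. There the sums were 33.4, 42.5 and 45.9 CPM in R26WT samples and 31.3, 33.4 and 32.5 CPM in R26TIR1 samples. The 3 R26TIR1 samples lay close together and the R26WT samples were spread, with one of them at the level of the highest R26TIR1 sample. On day 3 the R26WT samples had 41.9, 39.0, 36.5 and 36.9 CPM and the R26TIR1 samples 40.6, 32.0, 35.4 and 36.3 CPM. For Itgae the log2 fold change was -0.31 on day 7 (standard error 0.120, adjusted p = 0.638), -0.05 on day 3 and -0.16 over both days (adjusted p = 0.402). Without R26WT replicate 1 the day 7 value was -0.45, without R26WT replicate 3 it was -0.20. The difference between the days was not past the threshold (interaction -0.26, 95% interval -0.59 to 0.07, adjusted p = 0.585). Of its 22 windows, 19 had a log2 fold change below 0 over both days, as did 49.3% of all windows. Only 16 of the 22 are free of overlap.

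Itgb1, the β1 chain shared by most integrins that bind matrix and inflamed vessels, was the member with the largest difference relative to its error. Its sums on day 3 were 102, 115, 109 and 104 CPM in R26WT and 118, 124, 122 and 122 CPM in R26TIR1 samples. On day 7 they were 105, 109 and 105 CPM against 114, 122 and 123 CPM. Within each day every R26TIR1 sample was above every R26WT sample, while over both days R26WT replicate 2 of day 3 reached above R26TIR1 replicate 1 of day 7. The log2 fold change was 0.24 on day 3 (adjusted p = 0.143), 0.17 on day 7 (adjusted p = 0.634) and 0.21 over both days (standard error 0.044, unadjusted p = 8.86e-05, adjusted p = 0.0944, edgeR's quasi-likelihood test). By unadjusted p, Itgb1 had rank 15 of 15971 genes over both days. DESeq2 over both days gave the same size (0.21) and an adjusted p of 0.000980, and leaving out each sample in turn gave values from 0.19 to 0.23 with adjusted p from 0.0753 to 0.239. Of its 35 windows, 29 had a log2 fold change above 0 over both days, where 50.7% of all windows did.

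**Figure D3:**
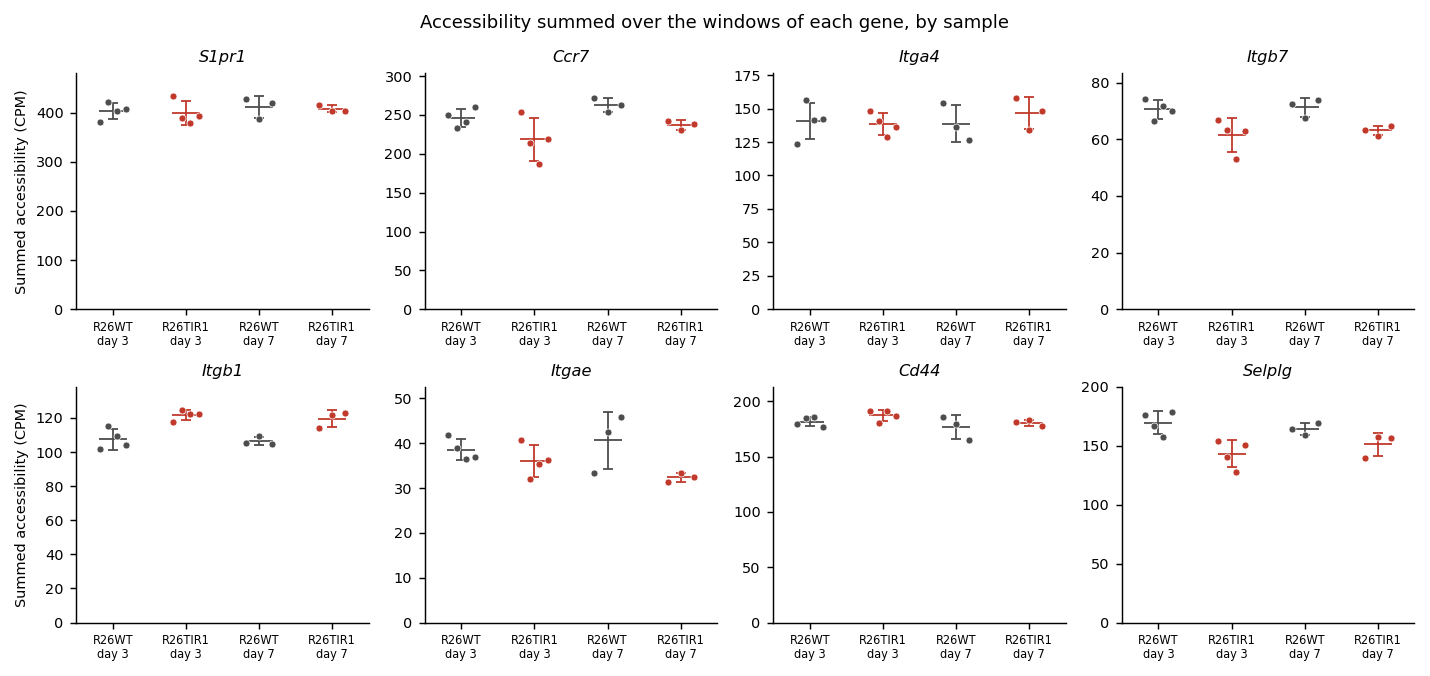
Accessibility summed over the windows of each gene in CPM (vertical axes, from 0), with 1 point per sample and the mean and SD of each group. In the panel of Itgb1 the R26TIR1 samples lie above the R26WT samples of the same day, at 118 to 124 against 102 to 115 CPM on day 3, while S1pr1 and Itga4 overlap.

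The windows of Itgb1 with the smallest p lay far upstream. A group of 7 windows on chromosome 8, from 128594265 to 128595752, lay between Nrp1, 88789 bp past its end, and Itgb1, 89902 bp before its start, and gave 9.64% of the Itgb1 sum. Only 4 of the 7 are free of overlap, so that the same reads enter several of them. Their summed accessibility on day 3 was 5.19, 7.14, 9.29 and 6.85 CPM in R26WT and 9.89, 11.5, 16.4 and 17.3 CPM in R26TIR1 samples. On day 7 it was 7.30, 8.95 and 13.2 CPM against 12.0, 13.9 and 14.8 CPM. The day 3 groups did not overlap, and on day 7 the shallow R26WT replicate 3 lay within the range of the R26TIR1 samples. These windows were grouped after their values were seen, so their sum was not tested. One by one, 6 of the 7 had a log2 fold change of 0.74 to 1.01 over both days. The smallest adjusted p was 0.118, at 128595037 to 128595238, with 0.866, 1.39, 1.298 and 1.298 CPM in R26WT and 1.62, 2.63, 2.61 and 2.17 CPM in R26TIR1 samples on day 3. On day 7 the same window had 1.42, 1.92 and 1.05 CPM against 1.98, 3.10 and 2.93 CPM, a log2 fold change of 0.86 over both days (standard error 0.19). The window from 128594801 to 128595002 was the 1 window of the 8 genes in which all 7 R26TIR1 samples lay above all 7 R26WT samples, at 1.77 to 2.35 CPM against 0.606 to 1.499 CPM, where such separation was found in 0.116% of all windows. Its log2 fold change was 0.91 (standard error 0.21, adjusted p = 0.151). The windows are shallow, at 20.1 to 28.6 counts per library on average. The nearest start site assigned them to Itgb1, and whether they act on Itgb1, Nrp1 or neither was not measured.

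The rest of the Itgb1 locus carried part of the difference. Its other 28 windows summed to 98.8 ± 5.06 CPM (SD, n = 7) in R26WT and 107 ± 3.45 CPM (SD, n = 7) in R26TIR1 samples. With windows within 20 kb alone, the log2 fold change of the sum was 0.16 over both days (adjusted p = 0.242) and 0.13 on day 3. The window over the start had 13.3 CPM on average, with a log2 fold change of 0.10 (95% interval -0.10 to 0.30, adjusted p = 0.909).

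**Figure D4:**
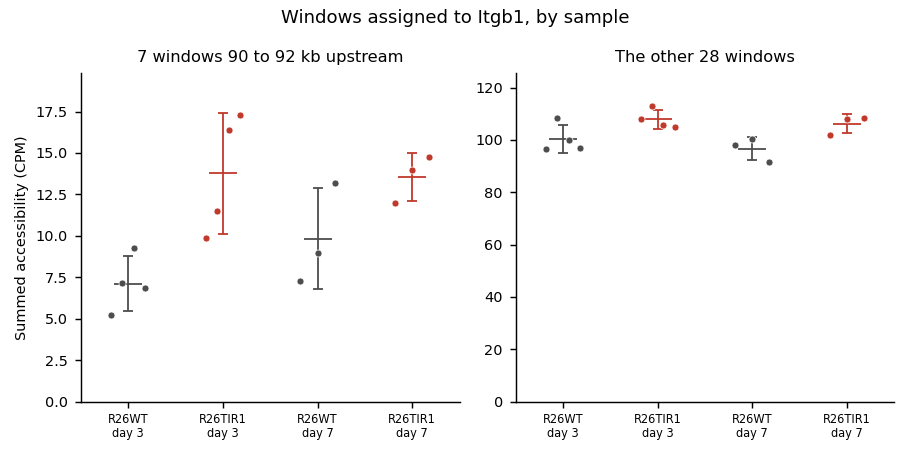
Summed accessibility in CPM (vertical axes, from 0) of the 7 windows far upstream of Itgb1 and of the other 28 windows assigned to it, with 1 point per sample and the mean and SD of each group. On the left the 4 R26TIR1 samples of day 3 lie between 9.89 and 17.3 CPM and the 4 R26WT samples between 5.19 and 9.29 CPM.

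Of the adhesion glycoproteins, Cd44, the hyaluronan receptor that marks activated T cells, had similar sums in both genotypes. They were 177 to 186 CPM in R26WT and 180.1 to 192 CPM in R26TIR1 samples on day 3, and 165 to 186 CPM against 178 to 183 CPM on day 7. The log2 fold change over both days was 0.07 (95% interval -0.01 to 0.15, adjusted p = 0.419). Its start window had a log2 fold change of -0.09 (95% interval -0.31 to 0.13), and its most accessible window, 52562 bp downstream inside the gene, one of -0.18 (adjusted p = 0.799). Windows of both signs occurred along the locus, 37 above 0 and 30 below.

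Selplg encodes PSGL-1, the ligand on which T cells roll over P-selectin. Its sums on day 3 were 176, 166, 157 and 179 CPM in R26WT and 154, 141, 128 and 151 CPM in R26TIR1 samples. On day 7 they were 164, 159 and 169 CPM against 139.9, 157 and 156 CPM. The groups did not overlap on either day, although they came close on day 7. The log2 fold change was -0.19 on day 3 (adjusted p = 0.180), -0.11 on day 7 (adjusted p = 0.709) and -0.16 over both days (standard error 0.047, unadjusted p = 0.00283, adjusted p = 0.190). The start window, at chromosome 5 from 113832616 to 113832817, had 14.1, 13.8, 13.5 and 15.5 CPM in R26WT samples on day 3 and 13.5, 10.5, 9.09 and 12.1 CPM in R26TIR1 samples. On day 7 it had 15.6, 14.1 and 16.3 CPM against 8.88, 13.5 and 10.8 CPM. The shallow R26TIR1 replicate 1 of day 3 touched the R26WT range of its day, and each of the other 6 R26TIR1 samples lay below the R26WT samples of its own day. This gave a log2 fold change of -0.41 over both days (standard error 0.10, adjusted p = 0.275 by edgeR and 0.0323 by DESeq2), the largest in size among the start windows of these genes. Not all of the locus moved that way: 4 overlapping windows from 113854907 to 113855381, upstream of the gene, with 0.944 to 1.02 CPM on average, had log2 fold changes of 0.48 to 0.92 (smallest adjusted p = 0.457).

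**Figure D5:**
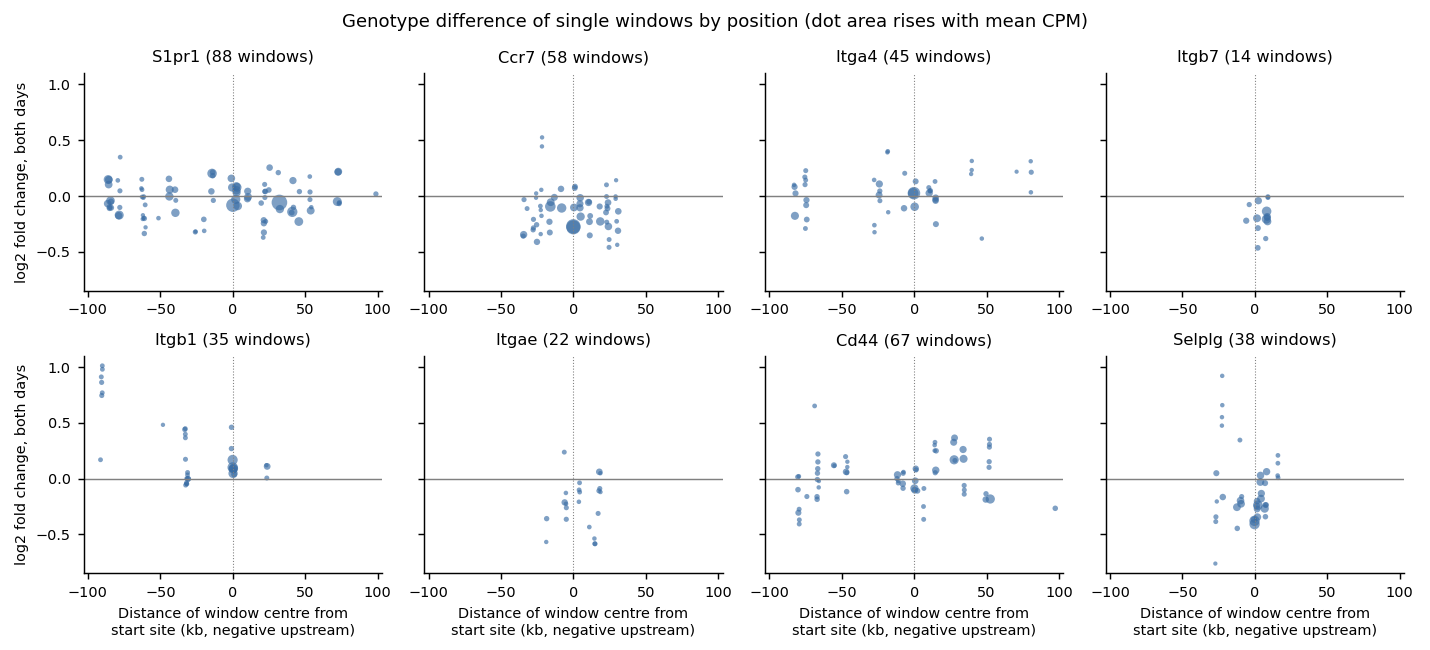
Log2 fold change of each window over both days, R26TIR1 against R26WT (vertical axes), by the distance of its centre from the start site in kb (horizontal axes, negative upstream), with dot area rising with mean CPM. The group of Itgb1 windows at the far left reaches 1.01, Itgb7 lies wholly below 0, and the large dots of Ccr7 and Selplg at their starts lie below 0.

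Separation of the groups was counted against all windows and genes. On day 7, 53 of 366 windows of the 8 genes did not overlap between genotypes (14.5%), where 11.8% of all windows did not. Of these, 17 were higher in R26TIR1 samples (5.81% of all windows) and 36 lower (6.02% of all windows). On day 3 it was 17 of 360 (4.72%, against 4.1% of all windows), 9 higher and 8 lower (2.0% and 2.11% of all windows). Of the 8 sums, 5 did not overlap on day 7 (12.5% of all genes), namely Itgb1 higher (4.64% of all genes) and Ccr7, Itgb7, Itgae and Selplg lower (7.86% of all genes). For Itgae the groups all but touched, at 33.38 CPM in the highest R26TIR1 and 33.40 CPM in the lowest R26WT sample. On day 3 the sums of 2 genes did not overlap (7.84% of all genes), Itgb1 higher (1.8% of all genes) and Selplg lower (6.04% of all genes). None of the 8 did over both days (0.388% of all genes). The windows of smallest unadjusted p on day 7 were the Itgb1 window at 128594801 (log2 fold change 1.04, adjusted p = 0.615), the Selplg start window (-0.46, adjusted p = 0.675) and a Ccr7 window upstream of the gene at 99189357 (-0.50, adjusted p = 0.704). On day 3 all 3 belonged to the far upstream group of Itgb1, at 128595128 (1.06), 128595505 (1.29) and 128595551 (1.18), with adjusted p of 0.407, 0.407 and 0.443.

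Markers of cell types were read in the same libraries. The start windows of 9 T cell markers summed to 228 to 265 CPM in R26WT and 187 to 237 CPM in R26TIR1 samples on day 3, and to 242 to 249.7 CPM against 237 to 245 CPM on day 7. Those of the Treg cell markers were 234 to 278 CPM against 208 to 271 CPM on day 3 and 250.1 to 274 CPM against 250.4 to 266 CPM on day 7. R26TIR1 replicate 3 on day 3 was lowest in both lists (187 and 208 CPM), as it was in the sums of Ccr7, Itgb7 and Selplg. Without it, the log2 fold changes over both days were -0.11 for Ccr7, -0.13 for Itgb7 and -0.14 for Selplg. B cell markers summed to 22.4 to 23.7 CPM against 21.8 to 32.9 CPM on day 3 and to 21.1 to 27.9 CPM against 20.2 to 26.2 CPM on day 7. Myeloid markers summed to 24.8 to 32.6 CPM against 26.5 to 31.3 CPM on day 3 and to 27.3 to 29.1 CPM against 26.2 to 30.0 CPM on day 7, and the genotypes overlapped in both lists. CD8 and NK cell markers summed to 52.2 to 56.0 CPM against 52.3 to 64.6 CPM on day 3 and to 54.7 to 56.1 CPM against 54.3 to 56.5 CPM on day 7. Resting Treg cell markers summed to 436 to 490.2 CPM against 370.3 to 464 CPM on day 3 and to 433 to 477 CPM against 459 to 497 CPM on day 7. Activated Treg cell markers summed to 145 to 168 CPM against 139.7 to 159.5 CPM on day 3 and to 156 to 162 CPM against 156 to 167 CPM on day 7. Summed over all their windows, the T cell markers had a median log2 fold change of -0.09 over both days and the Treg cell markers one of -0.08, with 0 of 9 and 0 of 10 genes called. The part of these markers in the differences of the 8 genes was not tested.

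From day 3 to day 7, none of the 8 genes was called in either genotype. In R26WT samples 0.003% of all windows and 0.0% of genes were called, and in R26TIR1 samples 0.0% and 0.0%. In R26WT samples the log2 fold changes of the sums from day 3 to day 7 lay between -0.03 (Selplg) and 0.11 (Ccr7), and in R26TIR1 samples between -0.19 (Itgae) and 0.09 (Ccr7). All 8 genes overlapped between days in both genotypes (5.09% of all genes did not in R26WT samples and 9.92% did not in R26TIR1 samples). The windows of smallest p in R26WT samples were at 113816387 of Selplg (log2 fold change -0.79), 128653600 of Itgb1 (0.71) and 115642040 of S1pr1 (-0.42), each with an adjusted p of 0.928. In R26TIR1 samples they were at 99182622 of Ccr7 (0.85, adjusted p = 0.478), 115682396 of S1pr1 (0.43, adjusted p = 0.554) and 113842326 of Selplg (0.45, adjusted p = 0.582). The genotype difference did not differ between the days past the threshold in any window or sum, and the interaction terms of the sums lay between -0.26 (Itgae) and 0.07 (Selplg). No window or gene at all was called for the interaction (0.0%), with 6.32% of windows and 9.9% of genes at an unadjusted p under 0.05. Its smallest p among windows of the 8 genes were those at 113842326 of Selplg (0.71, adjusted p = 0.691), 113828622 of Selplg (0.65, adjusted p = 0.710) and 102947682 of Cd44 (-1.54, adjusted p = 0.742).

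The other genes of the same pathways were taken as lists. Of 10 tested genes for selectin entry and egress, Klf2 and the other sphingosine 1-phosphate receptors among them, 0 passed the test over both days in either direction (0.0188% of all genes), and 3 had an unadjusted p under 0.05 (13.2% of all genes). The smallest p was that of Gpr183, a receptor for oxysterols that positions lymphocytes, at 145 ± 9.07 CPM (SD, n = 7) in R26WT and 156 ± 15.8 CPM (SD, n = 7) in R26TIR1 samples (log2 fold change 0.13, adjusted p = 0.268). Of 12 other integrin chains, 0 passed in either direction, and Itga2, the α2 chain that pairs with β1, had 92.2 ± 3.64 CPM against 104 ± 7.49 CPM (SD, n = 7 each). Its log2 fold change was 0.21 (standard error 0.052, adjusted p = 0.141), of the same size as that of Itgb1. Of 11 chemokine receptors, 0 passed in either direction, and Cxcr5, the receptor for entry into B cell follicles, came closest with a log2 fold change of -0.15 (adjusted p = 0.273). The 14 genes of adhesion and motility, which include talin, Rap1 and coronin, gave 0 calls, with Fermt3, which encodes kindlin-3, at -0.16 (adjusted p = 0.302). The 7 genes that glycosylate selectin ligands gave 0 calls, with the sulfotransferase Chst2 at 0.10 (adjusted p = 0.325). In the lists of integrin chains, chemokine receptors, adhesion and motility, and glycosylation, 3, 3, 1 and 1 genes had an unadjusted p under 0.05, to be read against the same shares of all genes. The medians of the log2 fold changes over both days were -0.01, 0.00, 0.01, -0.03 and 0.08 in these 5 lists, beside 0.00 for all genes.

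Across the 14 samples the sums of Ccr7, Itgb7 and Selplg varied together. Of 28 pairs of the 8 genes, 6 had a Pearson correlation with an adjusted p under 0.05 by permutation, and they were the 6 pairs formed by Ccr7, Itgb7, Selplg and Itgb1. The share of all gene pairs that pass was not computed, so these pairs cannot be called particular to the 8 genes. The closest genes of each member reached r of 0.84 to 0.97. The permutation used all 14 samples, so differences between genotypes and days enter its p. By rank correlation 6 pairs passed as well, with S1pr1 and Itga4 (r = 0.64 and rho = 0.68, raw p = 0.0158 and 0.00873, adjusted p = 0.0633 and 0.0407, permutation test) in place of Ccr7 and Selplg. For S1pr1 and Itga4, r was 0.58 without the 2 samples farthest from the median of S1pr1. Ccr7 and Itgb7 had r = 0.87 and rho = 0.82 (raw p = 0.000250 and 0.000570, adjusted p = 0.00233 and 0.00798, permutation test), and r = 0.73 without the 2 samples farthest from the median of Ccr7. Itgb7 and Itgb1 had r = -0.81 and rho = -0.85 (raw p = 0.000150 and 0.000250, adjusted p = 0.00233 and 0.00700, permutation test), and r = -0.87 without the 2 samples farthest from the median of Itgb7. Ccr7 and Selplg had r = 0.78 and rho = 0.64 (raw p = 0.00117 and 0.0162, adjusted p = 0.00711 and 0.0623, permutation test), and r = 0.47 without the 2 samples farthest from the median of Ccr7. Within day 3 and within day 7, r was 0.91 and 0.95 for Ccr7 and Itgb7 and -0.78 and -0.88 for Itgb7 and Itgb1. After the group means were taken out, r was 0.83 for Ccr7 and Itgb7, 0.68 for Ccr7 and Selplg, 0.63 for Itgb7 and Selplg and 0.66 for S1pr1 and Itga4. For the pairs with Itgb1 it was -0.52 with Ccr7 (from -0.74), -0.43 with Itgb7 (from -0.81) and -0.20 with Selplg (from -0.72). The values with group means taken out were not tested. The points share library depth and scaling.

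The genes whose sums followed each member most closely over the 14 libraries were named by the highest Pearson correlation among 12451 genes, as a description. They were Stat5b (r = 0.97) and Ppard (0.96) for Ccr7, Grk2 (0.96) and Cdkn1a (0.94) for Itgb7, and Urm1 (0.93) and Zbtb9 (0.92) for Selplg. For Itgb1 they were Vwa5a (0.92) and Rbm11 (0.90), for Itga4 Usp6nl (0.94) and Zfp800 (0.93), and for Cd44 Tspan2 (0.91) and Acss1 (0.88). S1pr1 was followed by Pglyrp1 (0.84) and the agouti gene a (0.84), and Itgae by Ccl1 (0.86) and Ltbp2 (0.85). These correlations pick the largest of many and the libraries share depth and scaling.

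On the log2 scale the pooled SD of the sums within groups was 0.050 for Cd44, 0.057 for Itgb1 and 0.067 for S1pr1, and reached 0.14 for Itgae. Among genes of a similar level, 1.14% had a smaller SD than Cd44 and 1.56% a smaller one than Itgb1.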

How the data were processed

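Bulk ATAC-seq counts of 14 libraries were analysed. The authors aligned reads to mm10 (Bowtie2), and peaks from MACS2 that replicates shared were merged into 1 atlas, with reads counted by featureCounts in windows at the summits. The deposited values are raw counts in 240778 windows of equal length. Whether starts are counted from 0 or 1 is not given in the sources used here. Library totals were 5653289 to 20184487 counts. Reads carry no molecular identifiers, so precision covers counting error and the spread between samples only, and p-values measure the spread between these samples, which the file headers name by mouse.

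Each window was assigned to the nearest start site of 21887 protein-coding genes (RefSeq, GRCm38.p6) within 100 kb, with gene strand from GENCODE (19669 genes) or RefSeq promoters (1772) and none for 446. Counts of windows, and their sums per gene, were tested with edgeR 4.0.16 (quasi-likelihood test, TMM scaling, mean count of at least 10) in R 4.3.3, over all windows or genes, with Benjamini-Hochberg adjustment at 0.05. Genotypes were compared within each day and in a joint fit that holds a term for day, days within each genotype, and the interaction in the joint fit. Sums per gene count reads in overlapping windows more than once. CPM use TMM factors from the windows of all 14 libraries, while each fit took its factors from the counts it tested. The log2 fold changes of sums are therefore not exactly those of the printed CPM. Correlations used log2 values with a pseudocount of 0.5 and 100000 permutations. The fits were tested on simulated data.

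The text names the 8 genes with their sums, start window and most accessible window, the 3 windows of smallest p in each comparison, the gene of smallest p in each list, and the 2 best correlated genes. Windows of the far upstream Itgb1 group, of Itgb7 at 102231297 and of Selplg at 113854907 to 113855381 were picked once their values were known. The members and all lists were chosen with earlier results of these data known. Alternatives were DESeq2 1.42.0, its size factors, total counts, other count filters, windows within 20 kb, windows without overlap, the replicate block, a term for letters in the library names, leaving out each sample, and, chosen after seeing the data, leaving out both shallowest libraries.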

Additional observations from a re-analysis of the deposited data

Results flagged for a closer look

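In 5 of 70 groups of 4 samples examined, 1 sample stood far from the other 3 by Dixon's 95% criterion, where chance gives about 1 in 20 groups, or 3.5. The most accessible Cd44 window, at 102849007 on chromosome 2, had 11.1 CPM in R26TIR1 replicate 1 of day 3 and 8.77 to 8.91 CPM in the other 3. The far upstream Itgb1 window at 128594801 had 0.606 CPM in R26WT replicate 1 of day 3 against 1.24 to 1.298 CPM in the others. Its neighbour at 128595551 had 1.298 CPM in R26WT replicate 3 of day 3 against 0.649 to 0.728 CPM. The Itgb1 window at 128653600 had 1.85 CPM in R26WT replicate 2 of day 3 against 0.866 to 1.02 CPM, and 1.79 CPM in R26TIR1 replicate 3 of day 3 against 1.08 to 1.13 CPM.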

How the results depend on the processing

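Of 79 log2 fold changes, 56 kept their direction under every alternative run and 23 turned at least once. With DESeq2, 1 of the 8 genes was called on day 3 (1.15% of all genes) and 1 over both days (1.18% of all genes), Itgb1 each time, and 2 windows over both days (0.0644% of all windows), both at the Selplg start. Without both shallowest libraries, a choice made after the data were seen, 4 windows were called over both days (0.047% of all windows), 1 of Ccr7 and 3 of Itgb1. This takes out R26TIR1 replicate 1 of day 3, the highest day 3 sample at the Ccr7 start. It also takes out R26WT replicate 3 of day 7, the highest R26WT sample in the far upstream Itgb1 group. The other alternatives, leaving out each sample included, gave 0 calls among the windows and sums of the 8 genes. The cause was not tested. Same-numbered samples did not deviate together (r from -0.08 to 0.07 over 66750 windows), a check that cannot show whether they were handled in pairs. The fit with the replicate block gave 0 calls among the 8 genes and their windows.

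With windows within 20 kb alone, the log2 fold change turned for S1pr1 on day 7 (0.101), from day 3 to day 7 in R26TIR1 samples (0.0838) and in the interaction (0.0649). It also turned for the interactions of Ccr7 (0.014), Itgb1 (0.0694) and Cd44 (0.0736), and between days for Cd44 (0.0264) and Itgb7 (-0.00515) in R26TIR1 and Itgb1 (-0.166) in R26WT samples. Between days in R26TIR1 samples, Itgb7 turned with total counts (-0.00102), a mean count of at least 50 (-0.000675) and windows without overlap (-0.0014). Between days in R26WT samples, Itga4 turned with total counts (0.00484), and Itgb1 with DESeq2 (-0.00166), its size factors (-0.00143), no filter (-0.000131) and windows without overlap (-0.0325). The Itga4 start window turned without both shallowest libraries (-0.0458).

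Leaving out 1 sample at a time, S1pr1 ran from -0.0688 to 0.0388 on day 7, from -0.00109 to 0.0393 over both days, from -0.00400 to 0.104 between days in R26WT and from -0.0304 to 0.0177 in R26TIR1 samples. Itga4 ran from -0.00884 to 0.0895 on day 3, from -0.0702 to 0.0603 and from -0.0144 to 0.101 between days in R26WT and R26TIR1 samples, and from -0.0125 to 0.113 in the interaction. Itgb7 ran from -0.0252 to 0.0834 and from -0.039 to 0.0261 between days, and from -0.0753 to 0.0326 in the interaction. Ccr7 ran from -0.0644 to 0.0373 in the interaction. Itgae ran from -0.092 to 0.0203 on day 3 and from -0.0351 to 0.22 between days in R26WT samples, where Itgb1 ran from -0.0347 to 0.0459 and Selplg from -0.0832 to 0.00767. The windows at 115682714 of S1pr1, 79255189 of Itga4 and 73108276 of Itgae ran from -0.129 to 0.00317, from -0.0391 to 0.0737 and from -0.0377 to 0.192 over both days. The windows far upstream of Itgb1 held 20.1 to 28.6 counts per library on average.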
